A study of Arabidopsis thaliana with 36 samples.

Results

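The genes described here lost most of their transcript in wild-type basal hypocotyl segments 8 h after wounding and had more of it again at 16 h. They were chosen by their levels in wild-type basal segments of Arabidopsis thaliana, given as CPM, the counts of a gene scaled by the reads assigned to all genes. A member had a mean of at least 10 CPM at both 0 h and 16 h, and its 8 h mean lay at least 4-fold below each of these means, with 0.5 CPM added to all of them. Of 32833 loci, 63 met these thresholds. The clock gene LHY was among them, and it was set aside by the rule together with CCA1, PRR9 and PRR7, which did not meet them. This left 62 members. Because the wild-type basal levels chose the members, they are given as a description and without a test, and every test below rests on the other segments.

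The series measured 3' mRNA tags (QuantSeq, which reads the 3' end of polyadenylated transcripts) in total RNA of hypocotyls, the stem of the seedling. Seedlings of wild type (WT, Col-0) and of ahk3 ahk4, a double mutant of the cytokinin receptors AHK3 and AHK4, received a night of continuous light after stratification and then grew for 5 days in low light. They were cut above the junction of root and shoot, and segments of 2 to 3 mm were dissected from a basal and from a medial region at 0, 8 and 16 h after wounding. Genotype, region and time form 12 groups, each of 3 libraries labelled as biological replicates, 36 in all. Both genotypes were wounded, and unwounded segments of 8 and 16 h were not analysed here, so that the response to wounding and the hours that passed cannot be told apart. The labels do not give the time of day, the number of seedlings in a sample, or whether basal and medial segments of a replicate came from the same seedlings. The p-values therefore measure the spread between these libraries, which may be partly technical.

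The largest group of members by role encodes parts of the photosynthetic apparatus, with 27 of 62 in its antennae and photosystems. Chlorophyll a/b-binding proteins (LHCA and LHCB) form the antennae that collect light for photosystem I and photosystem II, and subunits named PSA and PSB belong to the reaction centres themselves, where the PSBO, PSBP and PSBQ proteins assist the splitting of water. Nuclear antenna genes are textbook targets of light, sugar and the circadian clock, a loop of transcription factors that times gene expression to the day. By role, the 62 members were sorted, after their values had been seen, into 13 antenna genes, 8 subunits of photosystem I, 6 proteins of photosystem II, 5 other plastid genes, 2 enzymes of photorespiration, 4 genes linked to the clock and 24 others.

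The members included 3 pairs of neighbouring genes with no locus between them in the RefSeq annotation of assembly TAIR10.1, the antenna genes LHCB2.2 and LHCB2.1, the antenna genes CAB2 and CAB1, and the thylakoid gene CURT1C next to PSAH2. The 250 bases before the annotated transcription start are shown for 4 members, since members that fall and return together invite a comparison of their promoters. LHCB2.2 and LHCB2.1 had the deepest dips, LHCB6 holds all 3 motifs marked, and RVE1 stands for the genes linked to the clock. Capitals mark the I-box GATAAG, the G-box CACGTG and the box TATCCA on either strand, each promoter being printed 5' to 3' along its gene, which lies on the minus strand in all 4 cases. The sequences are from RefSeq, build TAIR10.1, at chr2:1800473-1800722, chr2:1824481-1824730, chr1:5447881-5448130 and chr5:5692993-5693242 in the order shown.
LHCB2.2: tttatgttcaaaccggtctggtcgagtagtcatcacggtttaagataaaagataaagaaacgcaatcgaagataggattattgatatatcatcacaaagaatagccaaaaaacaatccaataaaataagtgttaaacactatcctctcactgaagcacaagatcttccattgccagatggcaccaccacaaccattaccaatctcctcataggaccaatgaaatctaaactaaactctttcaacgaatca
LHCB2.1: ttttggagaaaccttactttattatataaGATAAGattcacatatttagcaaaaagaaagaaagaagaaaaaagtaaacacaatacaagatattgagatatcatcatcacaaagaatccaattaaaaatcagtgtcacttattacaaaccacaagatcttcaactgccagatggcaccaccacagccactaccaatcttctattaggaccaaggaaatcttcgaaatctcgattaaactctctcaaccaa
LHCB6: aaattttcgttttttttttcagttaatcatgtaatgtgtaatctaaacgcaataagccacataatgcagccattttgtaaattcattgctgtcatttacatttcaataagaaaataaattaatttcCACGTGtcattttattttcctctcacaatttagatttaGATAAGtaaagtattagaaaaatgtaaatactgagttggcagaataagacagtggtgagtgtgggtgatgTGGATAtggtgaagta
RVE1: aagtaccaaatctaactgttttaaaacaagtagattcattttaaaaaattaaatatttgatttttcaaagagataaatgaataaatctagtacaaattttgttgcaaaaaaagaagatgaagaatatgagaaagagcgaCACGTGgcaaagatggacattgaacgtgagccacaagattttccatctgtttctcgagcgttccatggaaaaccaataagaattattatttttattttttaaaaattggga
The promoter of LHCB2.1 holds 1 I-box, that of LHCB6 holds 1 of each motif, that of RVE1 holds 1 G-box, and that of LHCB2.2 holds none of the 3.

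Over all members, the letters TATCCA, known from genes that respond to sugar starvation, occurred in 21 of 62 such promoters (33.9%) and in 13.6% of 27437 promoters of the annotation. The I-box, a motif of light-regulated genes, occurred in 15 members (24.2%) against 12.3% of all promoters. The G-box CACGTG was in 9 members (14.5%) against 6.49%, and ACGTGG, which can overlap it, was in 12 (19.4%) against 8.23%. The CCA1-binding site AAAAATCT was in 7 members (11.3%) against 6.69%. None of the 62 held the evening element AAAATATCT (2.36% of all promoters), its core AAATATCT (4.79%) or the telo-box AAACCCTA (4.49%), and 5 (8.06%) held the site II letters TGGGCC (13.7%). The other motifs searched were CACATG in 5 members (8.06% against 11.1%), TGTCTC in 10 (16.1% against 10.9%), TTGACC in 6 (9.68% against 12.2%) and GAANNTTC in 6 (9.68% against 9.55%). Both strands were searched, no share was tested, and a match of letters is not a site of binding.

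Libraries held between 6136167 and 13557332 reads assigned to genes. Reads aligned at more than 1 place were set aside in the deposited counts and made up 2.98% to 60.3% of the reads of a library. In WT basal segments this share was 34.9% to 40.5% at 0 h, 46.9%, 12.7% and 13.3% in the 3 libraries of 8 h, and 23.0% to 27.8% at 16 h. The receptor gene AHK3 read 46.6 to 168 CPM in the WT libraries and 1.13 to 9.30 CPM in the mutant ones, and AHK4 2.36 to 14.5 CPM and 0.106 to 2.25 CPM, so that both genes parted the 36 libraries as labelled. Markers of the removed root tip and root hairs summed to at most 2.24 CPM in any library.

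In WT basal segments the 62 members together took 7910 to 8837 CPM at 0 h, 618 to 853 CPM at 8 h and 3491 to 5441 CPM at 16 h. For 61 of them, all 3 libraries of 8 h lay below every library of 0 h and of 16 h. The rule chose on the means of these same libraries, so this separation describes the choice and is no further result. Its share over all loci was not counted. The fold between the lower flanking mean and the 8 h mean had a median of 5.76. The return was partial for most: the 16 h mean was below the 0 h mean for 50 members and above it for 12, and the ratio of 16 h to 0 h ranged from 0.0996 to 1.81 with a median of 0.774. In whole segments, fewer cells of a type and less RNA per cell cannot be told apart.

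The 3 deepest dips were those of antenna genes. LHCB2.2, an antenna gene of photosystem II, stood at 68.5, 82.2 and 76.7 CPM at 0 h, 0, 0.112 and 0.443 at 8 h and 26.2, 59.6 and 50.4 at 16 h, a fold of 67.0 between the 8 h mean and the lower of the flanking means, 0.5 CPM being added to each. Its neighbour LHCB2.1 stood at 252, 311 and 285 CPM at 0 h, 3.42, 1.45 and 1.66 at 8 h and 88.3, 172 and 142 at 16 h, a fold of 50.3. CAB2, of the LHCB1 family of major antenna proteins, went from 186, 241 and 171 CPM through 0.932, 3.46 and 0.111 to 55.0, 96.2 and 87.9. In these 3 genes no library of 8 h came near any library of the other times. LHCB4.2, a minor antenna protein, stood at 102, 140.4 and 127 CPM, then 1.86, 4.46 and 3.21 and 40.6, 56.4 and 58.3, and LHCA2, of the photosystem I antenna, at 119, 142 and 124, then 8.54, 7.25 and 10.4 and 66.8, 115 and 77.4. LHCB3 stood at 225, 266 and 224 CPM, then 9.47, 11.3 and 5.98 and 60.8, 83.2 and 92.3. Those 3 genes had folds of 14.2, 9.40 and 8.43, and all returned to levels below those of 0 h. LHB1B2, another LHCB1 gene, fell from 1493, 1665 and 1465 CPM to 19.1, 26.4 and 19.9, and reached 121, 222 and 221 at 16 h. The remaining antenna members LHCB5, LHCB6, CAB1, LHCA1, LHCA3 and LHCA4 had folds of 4.03 to 5.91. Members of the LHCB1 and LHCB2 families are near-identical copies. Reads that aligned to more than 1 copy were set aside with the other multiply aligned reads. The level of each copy may therefore be too low, by an amount that can differ between libraries and was not measured.

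As sums over a class, the subunits of the photosystems dipped less deeply and came back more fully than the antenna genes. The 8 photosystem I members summed to 1266 to 1333 CPM at 0 h, 181 to 285 at 8 h and 839.7 to 1341 at 16 h, so that the ranges of 0 h and 16 h overlapped. The 6 photosystem II members summed to 1084 to 1383 CPM, then 144 to 223 and 961 to 1497. By contrast the 13 antenna genes summed to 3679 to 4077 CPM at 0 h, 125 to 180.4 at 8 h and 852 to 1396 at 16 h, and their ranges at 0 h and 16 h lay apart. LHB1B2 alone held 1541 of the mean antenna sum of 3906 CPM at 0 h. Single genes of the classes overlapped. PSBQ-2, AT1G51400 and PSAD-2 had folds of 10.1, 9.29 and 8.63, above the 8.43 of LHCB3. The antenna genes LHCB5 and LHCB6 had ratios of 16 h to 0 h of 0.964 and 0.851. PSAD-2, a stromal subunit of photosystem I with the close copy PSAD-1, stood at 12.7, 15.3 and 19.6 CPM, 0.155, 0.781 and 1.88 CPM and 7.56, 16.4 and 11.8 CPM at the 3 times. PSBQ-2, of the water-splitting complex, stood at 27, 29.9 and 28.8 CPM, then 2.80, 2.23 and 0.665 and 17.9, 29.6 and 23.4, and AT1G51400, annotated as a photosystem II 5 kD protein, at 32.7, 46.9 and 41.2, then 3.88, 3.57 and 2.1 and 16.3, 34.8 and 50. PSBR, another photosystem II protein, went from 459, 553 and 578 CPM to 104, 115 and 75.9 and on to 459, 695 and 659, with overlapping libraries at 0 h and 16 h. PSBO1, PSAF, PSAG and PSAO followed the same course, with 8 h means of 54.1, 72.5, 72.5 and 28.2 CPM between 0 h means of 492, 336, 352 and 261 CPM and 16 h means of 408, 309, 305 and 203 CPM.

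**Figure D1:**
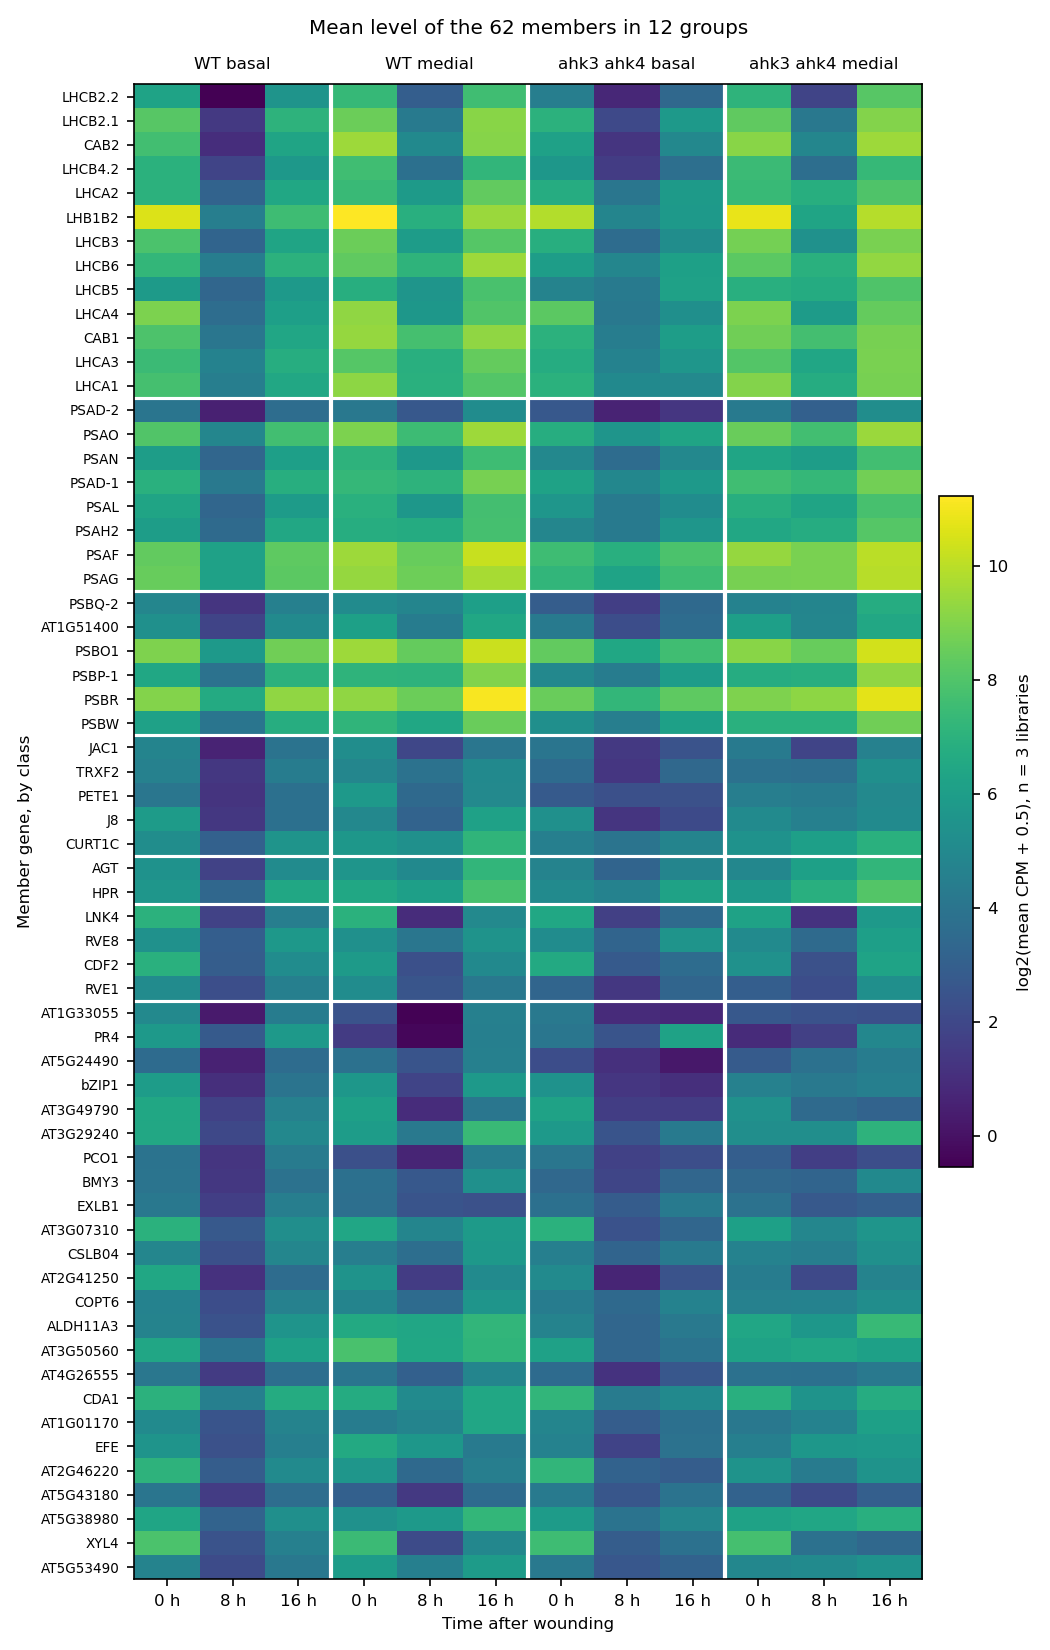
Mean level of each of the 62 members (rows, grouped by class and ordered within a class by the depth of the WT basal dip) in the 12 groups (columns: 0, 8 and 16 h for each genotype and region), as log2 of the mean CPM of 3 libraries plus 0.5. Colours are to be compared along a row, since 3' tags do not rank different genes. The dark column of WT basal 8 h is what the rule chose. In ahk3 ahk4 medial segments the dark 8 h column is kept by LNK4, CDF2 and RVE8 and by 10 of the 13 antenna genes, is pale for CAB1, LHCA2 and LHCB5, of which LHCB5 was not called, and is faint or missing for many genes of the lowest block.

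Other plastid members and the photorespiration enzymes dipped as well. JAC1, needed for chloroplast movement in light, stood at 24.5, 23.6 and 32.2 CPM at 0 h, 0.621, 1.45 and 1.11 at 8 h and 14.5, 12.8 and 17.6 at 16 h. AGT, the serine-glyoxylate aminotransferase of photorespiration, stood at 29.4, 51.8 and 47.0 CPM, then 4.81, 2.12 and 1.88 and 26.0, 45.5 and 30.6. The second photorespiration enzyme, hydroxypyruvate reductase (HPR), rose above its start, with means of 48.6, 9.86 and 88.1 CPM. The plastid thioredoxin TRXF2, the plastocyanin PETE1, the chloroplast J-domain protein J8 and CURT1C, which shapes thylakoid membranes, had folds of 8.21, 5.85, 5.30 and 4.22.

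The 4 genes linked to the clock were LNK4, of the LNK family of clock proteins, RVE8, a MYB factor that activates evening genes, RVE1, a related MYB factor that links the clock to auxin, and CDF2, a DOF factor that represses the flowering regulator CONSTANS. LNK4 stood at 128, 129.6 and 129 CPM at 0 h, 1.86, 1.00 and 5.98 at 8 h and 17.1, 30.5 and 19.1 at 16 h, and CDF2 at 102, 126 and 129, then 9.16, 6.47 and 5.43 and 34.4, 32.2 and 39.4. RVE1 stood at 33.7, 37.2 and 31.1 CPM, then 2.17, 6.92 and 3.99 and 20.4, 29.0 and 18.5, and RVE8 at 46.7, 42.7 and 34.0, then 4.35, 5.36 and 12.4 and 50.7, 54.2 and 52.6. RVE8 exceeded its 0 h level at 16 h in all 3 libraries, whereas LNK4 and CDF2 stayed below theirs in all 3. LHY, which the rule set aside, had means of 66.4 CPM at 0 h, 5.03 at 8 h and 205 at 16 h.

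Among the 24 others, AT1G33055, an uncharacterized gene, had the deepest dip, with 23.0, 33.6 and 36.6 CPM at 0 h, 0.621, 0.893 and 0.665 at 8 h and 13.6, 21.1 and 26.1 at 16 h. Regulators and enzymes of other pathways joined it. bZIP1, a transcription factor of low-energy responses, stood at 41.2, 63.1 and 80.4 CPM, then 1.24, 0.781 and 2.55 and 8.86, 15.7 and 21.2. EFE, an ACC oxidase that carries out the last step of ethylene synthesis, stood at 48.1, 67.2 and 23.1, then 2.64, 2.12 and 9.30 and 7.56, 35.2 and 24.8, and its libraries of 8 h and 16 h overlapped. It is the only member for which they did so. XYL4, a beta-xylosidase of the cell wall, fell from 254, 218 and 239 CPM to 6.06, 3.68 and 5.54 and returned only to 18.8, 29.2 and 21.4, the smallest return among the members. PCO1, a plant cysteine oxidase of oxygen sensing, stood at 12.5, 13.1 and 18.9 CPM, 1.09, 1.56 and 2.99 CPM and 17.4, 22.1 and 19.7 CPM. The others also held the pathogenesis-related gene PR4, the beta-amylase family gene BMY3, the expansin-like EXLB1, the cellulose synthase-like CSLB04, the copper transporter COPT6, the cytidine deaminase CDA1 and ALDH11A3, a glyceraldehyde-3-phosphate dehydrogenase of the aldehyde dehydrogenase family. Their folds ran from 4.55 to 8.04. The rest carried only a locus name in the annotation, such as AT3G49790 (a carbohydrate-binding protein), AT2G41250 (a haloacid dehalogenase-like hydrolase), AT3G29240 and AT3G07310 (proteins of unknown domains) and AT3G50560 (a Rossmann-fold protein), with folds of 7.61, 5.51, 7.50, 5.75 and 4.65.

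Just inside the fold threshold were AT5G53490 at 4.0-fold, LHCA1 at 4.03-fold and PSAG at 4.18-fold, and just outside it MYBC1 at 3.99-fold, the photosystem I subunit PSAK at 3.93-fold and LQY1 at 3.93-fold. By the level threshold, AT5G24490, AT2G41250 and PSAD-2 lay just inside, with lower flanking means of 11.2, 11.5 and 11.9 CPM, and AT3G54500, BGAL4 and ENODL15 just outside with 9.74, 9.73 and 9.23 CPM.

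**Figure D2:**
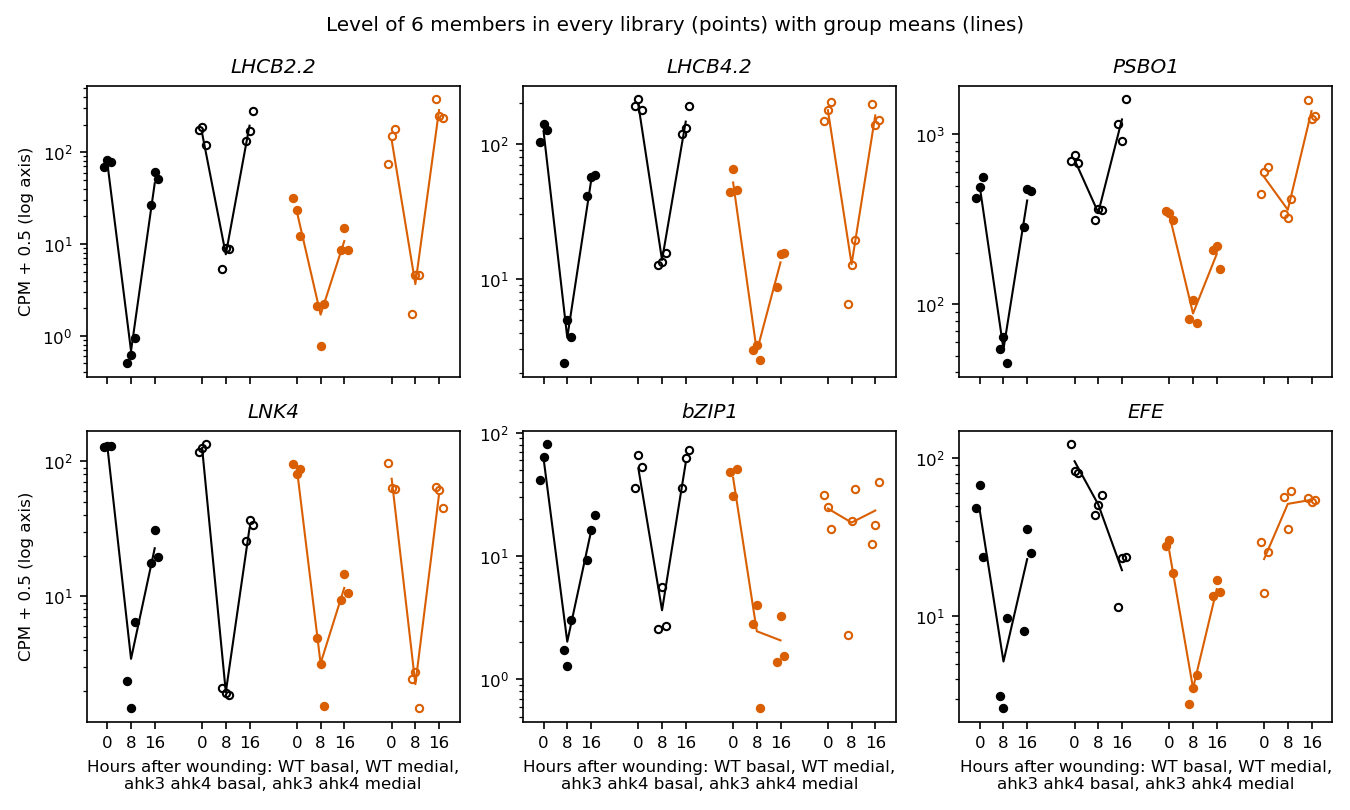
Level of 6 members in every library, as CPM plus 0.5 on a log axis, against hours after wounding (from left to right WT basal, WT medial, ahk3 ahk4 basal, ahk3 ahk4 medial; black is WT, orange is ahk3 ahk4, filled points are basal, open points medial, lines join group means). LHCB2.2, LHCB4.2 and LNK4 drop at 8 h in all 4 series, bZIP1 scatters from 1.79 to 34.2 CPM in ahk3 ahk4 medial at 8 h, and EFE falls throughout in WT medial and rises in ahk3 ahk4 medial.

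Lower levels at 8 h were also present in segments that had no part in choosing the members. The contrast sets 8 h against the mean of 0 h and 16 h, so a fall alone or a rise alone can also pass it. In WT medial segments 56 of 62 members were called lower at 8 h than the mean of 0 h and 16 h, against 12.5% of the 19548 genes tested (edgeR quasi-likelihood test on the 27 libraries other than WT basal, two-sided; a call needs a p under 0.05 after Benjamini-Hochberg adjustment over all 19548). In ahk3 ahk4 basal segments 54 were called lower, against 7.86% of genes, and in ahk3 ahk4 medial segments 35, against 8.44%. No member was called higher in any of the 3 by edgeR or by DESeq2, beside 13.2%, 12.6% and 13.7% of all genes called higher by edgeR, and 0, 0 and 1 were higher at an unadjusted p under 0.05. The median log2 fold change of the members was −1.76, −1.63 and −0.93, beside medians of −0.01, 0.02 and 0.07 over all genes. Of the 62, 33 were called lower in all 3 series, 18 in 2 of them, 10 in 1, and PCO1 in none. The strict thresholds of the rule were met far less often, by 14 members in WT medial (of 69 loci, 0.210% of all), by 6 in ahk3 ahk4 basal (of 13 loci, 0.0396%) and by 12 in ahk3 ahk4 medial (of 29 loci, 0.0883%). Only LHCB2.2, LHCB2.1, CAB2 and LHCB4.2 met them in all 4 series. The share of multiply aligned reads moved with the groups, and with it as a covariate 58, 56 and 37 members were called lower.

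By this contrast the antenna genes were lower at 8 h in all 3 series, with LHCB5 as the exception. Of the 13 genes, 13 were called lower in WT medial, 12 in ahk3 ahk4 basal and 12 in ahk3 ahk4 medial, with median log2 fold changes of −2.46, −2.38 and −2.69. A fall from 0 h was called for 13, 12 and 11 of them, beside 18.8%, 19.3% and 15.9% of all genes. A rise from 8 h to 16 h was called for 13, 12 and 11, beside 9.33%, 2.03% and 3.71%. LHCA1 had no called rise in ahk3 ahk4 basal (−0.09 ± 0.26). LHCA2 had no called fall in ahk3 ahk4 medial (−0.47 ± 0.26). LHCB2.2 stood at 174, 187 and 119.6 CPM at 0 h, 4.88, 8.47 and 8.31 at 8 h and 133, 170.1 and 278 at 16 h in WT medial segments. In ahk3 ahk4 medial it stood at 74.3, 151 and 179, then 1.25, 4.1 and 4.14 and 377, 248 and 235, and in ahk3 ahk4 basal at 31.3, 22.8 and 11.7, then 1.62, 0.283 and 1.70 and 8.12, 14.5 and 8.13. The 8 h libraries lay apart from both other times in each of these series. Its log2 fold change at 8 h was −4.65 ± 0.49 (adjusted p = 1.7e-07) in WT medial, −3.55 ± 0.50 (adjusted p = 1.75e-05) in ahk3 ahk4 basal and −5.87 ± 0.53 (adjusted p = 2.28e-08) in ahk3 ahk4 medial. LHCB2.1 gave −4.65 ± 0.42, −4.45 ± 0.43 and −4.45 ± 0.42, and CAB2 −4.33 ± 0.62, −4.51 ± 0.67 and −4.42 ± 0.62, all 6 called. LHCB4.2 went from 191, 213 and 177 CPM to 12.1, 12.7 and 15.1 and back to 118, 129 and 189 in WT medial, and LHB1B2 from 2216, 2632 and 2273 to 89.3, 142 and 115 and 697, 617 and 759. LHCB5, a minor antenna protein of photosystem II, was called only in WT medial. Its ahk3 ahk4 medial levels were 65.9, 153 and 128 CPM at 0 h, 183, 64.0 and 60.7 at 8 h and 293, 221 and 228 at 16 h, with 1 library of 8 h above all of 0 h.

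By the same contrast the photosystem subunits were lower at 8 h by smaller amounts in the median. In WT medial, ahk3 ahk4 basal and ahk3 ahk4 medial, 7, 7 and 6 of the 8 photosystem I members and 6, 6 and 5 of the 6 photosystem II members were called lower. The medians were −1.54, −1.01 and −0.84 for photosystem I and −1.48, −1.32 and −0.96 for photosystem II. Against 0 h alone fewer were lower at 8 h, 6, 6 and 2 of the 8 and 4, 5 and 2 of the 6, beside 18.8%, 19.3% and 15.9% of all genes. The calls in ahk3 ahk4 medial rest on few genes and are little above that share. From 8 h to 16 h, 8, 4 and 8 of the 8 and 6, 6 and 6 of the 6 rose, beside 9.33%, 2.03% and 3.71% of all genes. PSBO1 stood at 695, 752 and 678 CPM, 315, 364 and 359 CPM and 1150.2, 911 and 1609 CPM in WT medial, a log2 fold change of −1.49 ± 0.22 (adjusted p = 6.47e-06). In the mutant its change was −1.45 ± 0.22 in basal and −1.21 ± 0.21 in medial segments, both called. PSBR fell from 539.7, 689 and 598 CPM at 0 h to 413, 373 and 369.6 at 8 h in WT medial and then reached 1881, 2430.1 and 2168, so that its rise after 8 h was larger than its fall. PSAH2 was called only in ahk3 ahk4 basal, at −0.63 ± 0.26, −0.88 ± 0.27 and −0.48 ± 0.26 in the order above.

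All 4 clock-linked members were called lower in all 3 series, RVE1 only narrowly in the mutant. LNK4 stood at 117, 125 and 133 CPM at 0 h, 1.59, 1.43 and 1.36 at 8 h and 25.0, 36.3 and 33.2 at 16 h in WT medial, and at 96.5, 63.1 and 61.9, then 1.97, 2.28 and 0.98 and 64.6, 60.5 and 44.5 in ahk3 ahk4 medial. Its log2 fold change was −5.50 ± 0.38 (adjusted p = 2.51e-11) in WT medial, −3.46 ± 0.34 in ahk3 ahk4 basal and −5.10 ± 0.37 in ahk3 ahk4 medial. RVE8 gave −1.47 ± 0.21, −2.12 ± 0.22 and −2.05 ± 0.22, and CDF2 −3.38 ± 0.53, −2.27 ± 0.49 and −3.52 ± 0.53. RVE1, at −2.34 ± 0.71, −2.07 ± 0.73 and −2.02 ± 0.71, had adjusted p of 0.048 and 0.0444 in the mutant. With 1 of the 27 libraries left out at a time, its call was lost in 22 of 27 fits in ahk3 ahk4 basal, in 18 in ahk3 ahk4 medial and in 2 in WT medial. Of the 34 other clock genes listed, 13, 9 and 14 were called lower and 6, 6 and 9 higher in the 3 series, to be read beside the 12.5%, 7.86% and 8.44% of all genes called lower and the 13.2%, 12.6% and 13.7% called higher. CCA1, a MYB factor of the morning arm, was at −5.07 ± 0.75 in WT medial, and the evening genes FKF1 and ELF4 were higher at 4.03 ± 0.64 and 2.71 ± 0.37.

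**Figure D3:**
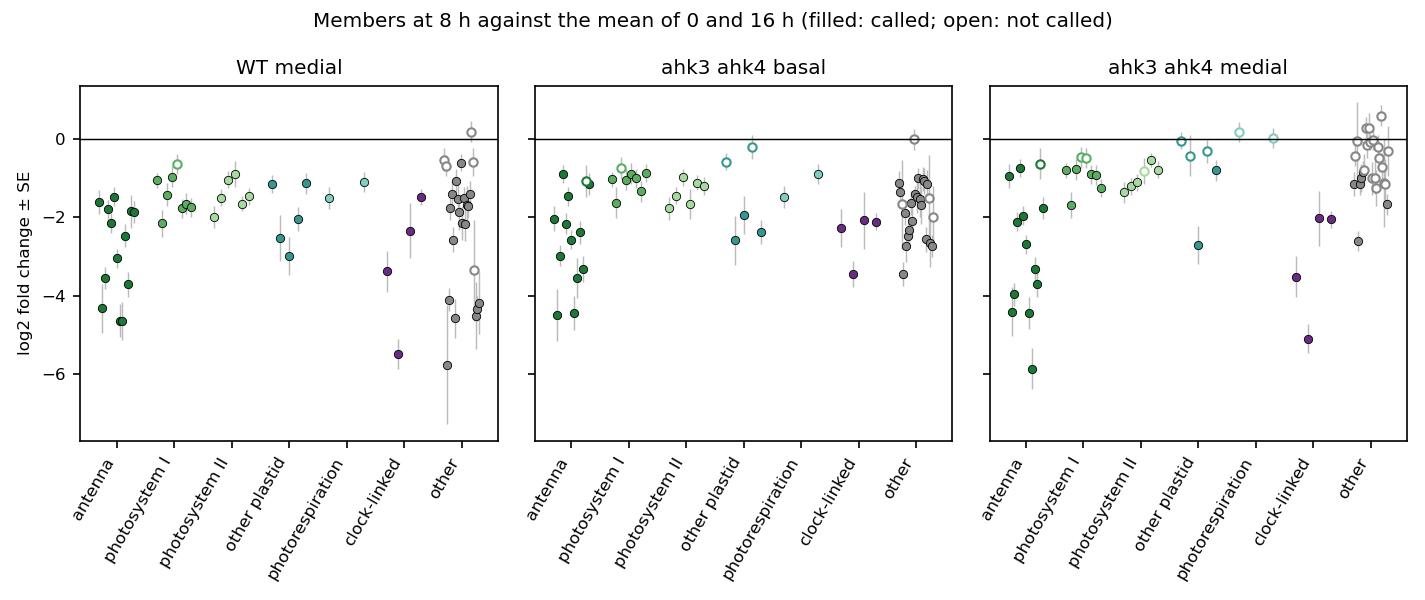
Log2 fold change ± SE of each of the 62 members at 8 h against the mean of 0 h and 16 h, by class, in the 3 series that did not choose them (filled points called at adjusted p under 0.05, open points not called, n = 3 libraries per group). Antenna and clock-linked genes lie below 0 in all 3 panels. In ahk3 ahk4 medial, both photorespiration genes sit near 0 and are open, and 18 of the 24 other genes are open, around a median of −0.74 for that class.

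The remaining members parted by series. Of the 24 others, 19 were called lower in WT medial and 20 in ahk3 ahk4 basal, and 6 in ahk3 ahk4 medial. Both photorespiration genes were called in the first 2 series, and neither in ahk3 ahk4 medial. AGT stood at 59.9, 51.0 and 32.8 CPM, 45.4, 42.4 and 10.5 CPM and 155, 178 and 112 CPM in WT medial, a change of −1.51 ± 0.28 (adjusted p = 0.000152). The levels in ahk3 ahk4 medial were 29.0, 33.6 and 25.2, then 85.0, 59.6 and 68.4 and 189, 127 and 126, every library of 8 h being above every library of 0 h, with a change of 0.19 ± 0.26 (adjusted p = 0.646). The 5 other plastid genes were called in 5, 3 and 2 cases, and JAC1 was called in each series, at −2.99 ± 0.49, −1.94 ± 0.48 and −2.72 ± 0.48. XYL4 was also called in each, at −4.34 ± 0.32, −2.73 ± 0.29 and −1.66 ± 0.27, as was AT2G41250 at −4.11 ± 0.29, −3.45 ± 0.30 and −2.60 ± 0.27. AT1G33055 and PCO1 scattered widely between libraries of 1 group. AT1G33055 read 0.497, 12 and 56.8 CPM in WT medial at 16 h and 0.179, 1.97 and 12.4 in ahk3 ahk4 medial at 8 h, and PCO1 0.828, 6.74 and 56.6 and 0.0893, 0.228 and 7.41 in the same libraries. In both genes the third library was the highest of each group. EFE was not called in WT medial, at 0.19 ± 0.27 (adjusted p = 0.649). There it fell throughout, from 122, 82.9 and 80.5 CPM to 43.5, 50.1 and 57.7 and 11, 22.9 and 23.4.

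The plastid and photorespiration members did not all follow 1 course in medial segments. JAC1 stood at 42.8, 37.8 and 30.9 CPM at 0 h, 5.49, 2.47 and 2.2 at 8 h and 12.3, 12.7 and 23.9 at 16 h in WT medial, and at 15.2, 24.5 and 18.3, then 0.179, 3.49 and 5.88 and 22.7, 28.1 and 22.7 in ahk3 ahk4 medial, with the 8 h libraries apart from the others in both. J8 stood at 22.2, 37.0 and 31.3 CPM, then 12.3, 7.80 and 6.11 and 48.8, 105 and 61.7 in WT medial. Its ahk3 ahk4 medial libraries read 36.8, 35.1 and 28.2 CPM at 0 h, 2.14, 31.9 and 36.6 at 8 h and 13.2, 26.4 and 59.8 at 16 h, with only the first of 8 h low, and its change there was −0.42 ± 0.52 (adjusted p = 0.611). CURT1C stood at 55.4, 55.2 and 43.8 CPM, then 44.4, 38.2 and 39.5 and 122, 154 and 149.8 in WT medial, with its 8 h libraries overlapping those of 0 h, and at 43.8, 54.5 and 31.9, then 87.9, 55.8 and 56.8 and 125, 116 and 124 in ahk3 ahk4 medial. HPR had a WT medial course of 93.5, 83.2 and 88.2 CPM, 57.3, 67.4 and 79.6 CPM and 196, 221 and 250.4 CPM. In ahk3 ahk4 medial, HPR stood at 44.5, 76.7 and 45.2 CPM, then 159.5, 87.5 and 105 and 308, 253 and 237, with every 8 h library above every 0 h library. PSBQ-2 was called in WT medial at −0.89 ± 0.33 (adjusted p = 0.0486), a call lost in 16 of the 27 fits with 1 library left out, and in ahk3 ahk4 basal at −1.66 ± 0.38, and had −0.82 ± 0.33 (adjusted p = 0.0775) in ahk3 ahk4 medial.

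Among the 24 others, the 6 called in ahk3 ahk4 medial were XYL4, AT2G41250, AT3G07310, AT3G29240, AT2G46220 and ALDH11A3, and AT3G07310 lost its call in 9 of the 27 fits with 1 library left out. AT2G46220 stood at 48.4, 43.5 and 53.5 CPM, then 14.1, 13.5 and 4.16 and 18.6, 22.2 and 23.8 in WT medial, with every 8 h library below the others, and changed by −1.13 ± 0.30 (adjusted p = 0.00714) in ahk3 ahk4 medial. CDA1 changed by −1.68 ± 0.49 (adjusted p = 0.0164) in ahk3 ahk4 basal. In ahk3 ahk4 medial it stood at 114, 123 and 109.6, then 12.5, 45.5 and 76.5 and 99.3, 78.1 and 144 CPM, at −1.25 ± 0.47 (adjusted p = 0.0622), and its 8 h libraries lay below all the others although the test was not passed. AT5G24490, annotated as a ribosomal protein, stood at 16.8, 12.8 and 12.4 CPM, then 5.12, 6.37 and 4.24 and 11.4, 23.2 and 34.9 in WT medial. It was not called in the mutant, at 0.01 in basal and 0.28 ± 0.40 in medial segments. The SE of the first is left out, since it is unreliable so near 0. In ahk3 ahk4 basal its means fell throughout, from 4.24 through 1.60 to 0.656 CPM, and it was called lower at 16 h than at 0 h (−2.61 ± 0.59). BMY3, CSLB04, COPT6 and PR4 were called in WT medial at −2.16 ± 0.45, −1.41 ± 0.34, −1.70 ± 0.32 and −4.52 ± 0.86 and in ahk3 ahk4 basal at −1.53 ± 0.45, −1.07 ± 0.33, −1.02 ± 0.31 and −2.64 ± 0.63. None of these 4 was called in ahk3 ahk4 medial, where their changes were −0.99 ± 0.42, −0.47 ± 0.32, −0.19 ± 0.30 and −1.15 ± 0.63. A missed call in 1 series and a call in another are not by themselves a difference, which was tested between genotypes in medial segments and between regions in ahk3 ahk4.

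The fall before 8 h and the rise after it were then taken apart; both contrasts use the same 8 h libraries. Against 0 h, 50 members were lower at 8 h in WT medial (18.8% of all genes), 51 in ahk3 ahk4 basal (19.3%) and 26 in ahk3 ahk4 medial (15.9%). Among members in ahk3 ahk4 medial, 4 were higher at 8 h than at 0 h (a share below the 19.8% of all genes), AGT at 1.33 ± 0.31, EFE at 1.19 ± 0.32, HPR at 1.15 ± 0.29 and CURT1C at 0.68 ± 0.25. The deepest falls from 0 h were those of LNK4 in WT medial, at −6.53 ± 0.41 (adjusted p = 7.46e-13), of CAB2 in ahk3 ahk4 basal, at −5.10 ± 0.71 (adjusted p = 5.8e-06), and of LHCB2.2 in ahk3 ahk4 medial, at −5.35 ± 0.53 (adjusted p = 2.47e-08). From 8 h to 16 h, 55 members rose in WT medial (9.33% of all genes), 35 in ahk3 ahk4 basal (2.03%) and 40 in ahk3 ahk4 medial (3.71%). The count of ahk3 ahk4 basal was 17 without its second library of 16 h, and 15 when only the compared groups were fitted. No member fell in ahk3 ahk4 basal (1.96% of all genes) or medial (4.52%) by edgeR or by DESeq2, with 1 and 0 at an unadjusted p under 0.05. Beside 5.96% of all genes, EFE was the 1 member that fell from 8 h to 16 h in WT medial, at −1.38 ± 0.32 (adjusted p = 0.00366). PR4 rose in WT medial from 0, 0.476 and 0.424 CPM at 8 h to 34.1, 25.0 and 9.74 CPM at 16 h, a log2 fold change of 6.10 ± 0.89. It also rose in ahk3 ahk4 basal, from 5.23, 5.65 and 4.63 CPM to 95.7, 53.8 and 74.8 CPM, at 3.77 ± 0.69.

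Levels at 16 h were set against those of 0 h in contrasts added after the data had been seen. Against 0 h, 11 members were lower and 19 higher in WT medial at 16 h (16.9% and 20.2% of all genes), 29 lower and 6 higher in ahk3 ahk4 basal (21.1% and 23.2%), and 3 lower and 27 higher in ahk3 ahk4 medial (14.8% and 18.1%). The count called lower in WT medial is near the share over all genes, and those called higher in ahk3 ahk4 basal and lower in ahk3 ahk4 medial are below it. The 3 lower calls in ahk3 ahk4 medial became 5 to 8 with the members chosen without the first or the third WT basal library of 8 h or the first of 16 h. Photosystem II genes passed their start in the medial segments, 4 of 6 in WT and 5 of 6 in ahk3 ahk4 being called higher. PSBP-1 went from 142, 168 and 105 CPM at 0 h to 473, 463 and 599 at 16 h in WT medial and from 70.5, 124 and 126 to 734, 534 and 586 in ahk3 ahk4 medial, with log2 fold changes of 1.82 ± 0.25 (adjusted p = 1.13e-06) and 2.48 ± 0.26 (adjusted p = 9.16e-09). AGT and HPR were also higher than at 0 h in both, at 1.55 ± 0.31 and 1.26 ± 0.29 in WT and 2.28 ± 0.31 and 2.22 ± 0.30 in ahk3 ahk4. In ahk3 ahk4 basal, by contrast, 9 of the 13 antenna genes ended lower and 1, LHCB5, higher. LHB1B2 ended lower in all 3 series, at −1.86 ± 0.27, −4.06 ± 0.30 and −0.97 ± 0.27. The basal segments of ahk3 ahk4 held 956, 969 and 887 CPM at 0 h, 37.6, 21.0 and 23.9 at 8 h and 40.0, 65.5 and 57.9 at 16 h. XYL4 and AT3G49790 likewise ended lower in each of the 3 series, at −2.68 ± 0.30, −3.69 ± 0.31 and −4.46 ± 0.33 for XYL4. bZIP1 stayed down in ahk3 ahk4 basal, from 47.6, 30.3 and 50.2 CPM at 0 h to 2.31, 3.49 and 0.0812 at 8 h and 0.893, 2.77 and 1.06 at 16 h. Its change from 0 h to 16 h was −4.69 ± 0.88 (adjusted p = 0.000192). The share of multiply aligned reads in ahk3 ahk4 basal segments went from 44.2% to 60.3% at 0 h to 2.98% to 15.1% at 16 h, and with that share as a covariate 0 of the 6 higher calls there were kept, with PSAH2, HPR and LHCB5 changing sign.

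**Figure D4:**
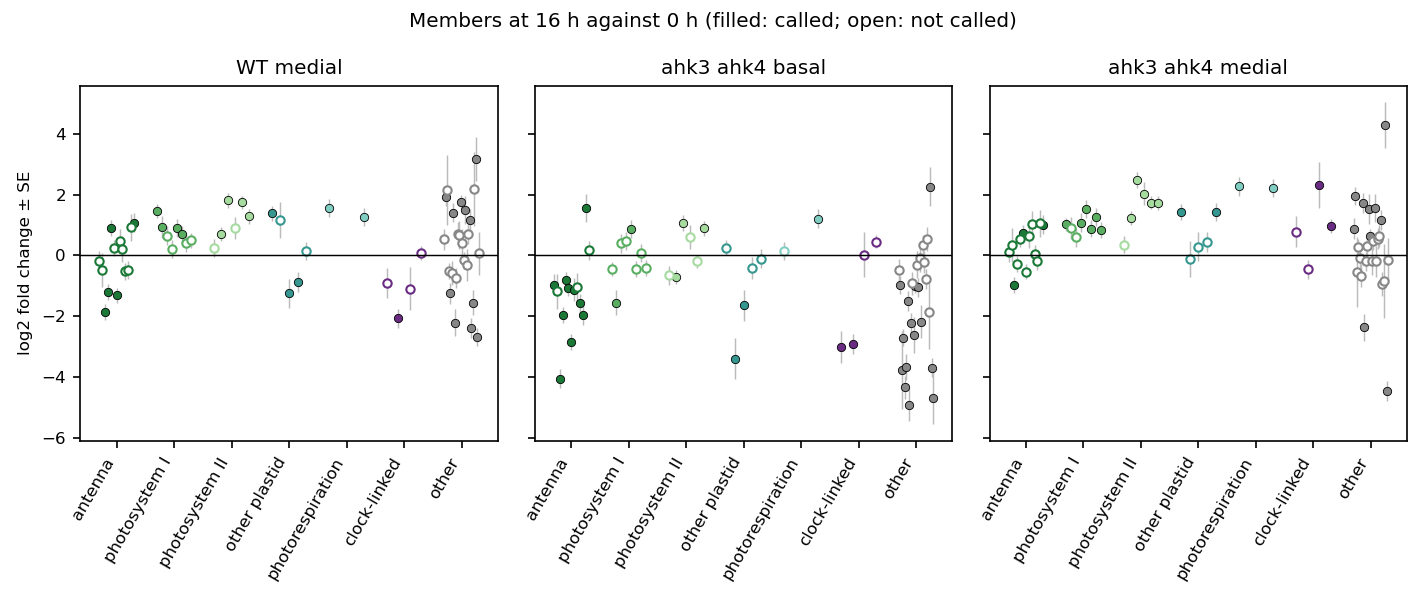
Log2 fold change ± SE of each of the 62 members at 16 h against 0 h, by class, in the 3 series that did not choose them (filled points called, open points not called, n = 3 libraries per group). Photosystem II and photorespiration genes lie above 0 in both medial panels, while the antenna centres near 0 there and below 0 in ahk3 ahk4 basal.

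The genotypes were compared in medial segments only, since WT basal libraries chose the members. At 0 h 6 members were lower in ahk3 ahk4 than in WT (2.37% of all genes) and none was higher by edgeR or by DESeq2, with 1 at an unadjusted p under 0.05. They were EFE at −2.17 ± 0.33 (adjusted p = 0.000124), AT3G50560 at −1.71 ± 0.33, PETE1 at −1.45 ± 0.33, AT2G41250 at −1.26 ± 0.26, AT5G53490 at −1.20 ± 0.29 and TRXF2 at −1.14 ± 0.30. The count was 3 without the third ahk3 ahk4 library and 16 in a fit of these groups alone. At 8 h 4 members were higher in ahk3 ahk4 (0.931% of all genes), AT3G49790, XYL4, AGT and LHCA2, and none was lower by edgeR or by DESeq2, with 3 at an unadjusted p under 0.05. XYL4 stood at 4.63, 5.04 and 2.04 CPM in WT and 12.1, 17.8 and 11.4 in ahk3 ahk4, without overlap, at 1.91 ± 0.31 (adjusted p = 0.00521). The count was 0 without the third WT library of 8 h and in a fit of these groups alone, 1 without the second, and 2 without any 1 of 5 libraries of other groups. At 16 h XYL4 was lower in ahk3 ahk4, at −1.66 ± 0.30 (adjusted p = 0.00665), and EFE higher, at 1.38 ± 0.32 (adjusted p = 0.0295) beside 0.941% and 0.839% of all genes. XYL4 was not called without the second or the third ahk3 ahk4 library of 16 h, and EFE not without any 1 of 5 of the 6 libraries of 16 h.

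The log2 fold change of 8 h against the mean of 0 h and 16 h differed between genotypes in 14 members, beside 3.38% of all genes. All 14 had a higher value in ahk3 ahk4 medial than in WT medial. None went the other way by edgeR or by DESeq2, beside 1.1% of all genes, with 3 at an unadjusted p under 0.05. Such a difference can also come from the levels at 0 h or 16 h, so it need not be a shallower dip. The 14 were bZIP1, AT3G49790, XYL4, AT5G24490, AT3G29240, AGT, PETE1, AT2G41250, COPT6, AT5G53490, LHCA2, AT3G50560, PSBR and CURT1C. Of the classes, 9 of 24 others, 2 of 5 other plastid genes, 1 of 2 photorespiration genes, 1 of 13 antenna genes and 1 of 6 photosystem II genes were among them, with none of the 4 clock-linked or the 8 photosystem I genes. XYL4 differed by 2.68 ± 0.37 (adjusted p = 0.00066), AT3G49790 by 3.81 ± 0.60 (adjusted p = 0.00127) and bZIP1 by 3.89 ± 0.95 (adjusted p = 0.0256) on the log2 scale. AT3G49790 read 61.7, 77.7 and 73.1 CPM at 0 h, 0.976, 1.43 and 1.87 at 8 h and 8.94, 15.9 and 23.3 at 16 h in WT medial, and 61.8, 32.0 and 32.6, then 3.57, 6.67 and 22.7 and 8.75, 6.38 and 11 in ahk3 ahk4 medial. In the mutant the libraries of 8 h and 16 h overlapped. bZIP1 read 35.3, 65.7 and 52.1 CPM, then 2.07, 5.14 and 2.2 and 35.0, 62.6 and 72.6 in WT medial. In ahk3 ahk4 medial it read 30.5, 24.7 and 16.2, then 1.79, 18.7 and 34.2 and 12.1, 17.3 and 39.4, the first library of 8 h being low and the other 2 not. That first library also had the lowest mean correlation with its own group, 0.912, and the lowest share of multiply aligned reads of its group, 3.82% against 15.1% and 21.3%, and the part these play was not tested. The count of 14 was 6 without the second WT library of 8 h, 9 without the first, and 8 when the fit held the share of reads outside genes.

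**Figure D5:**
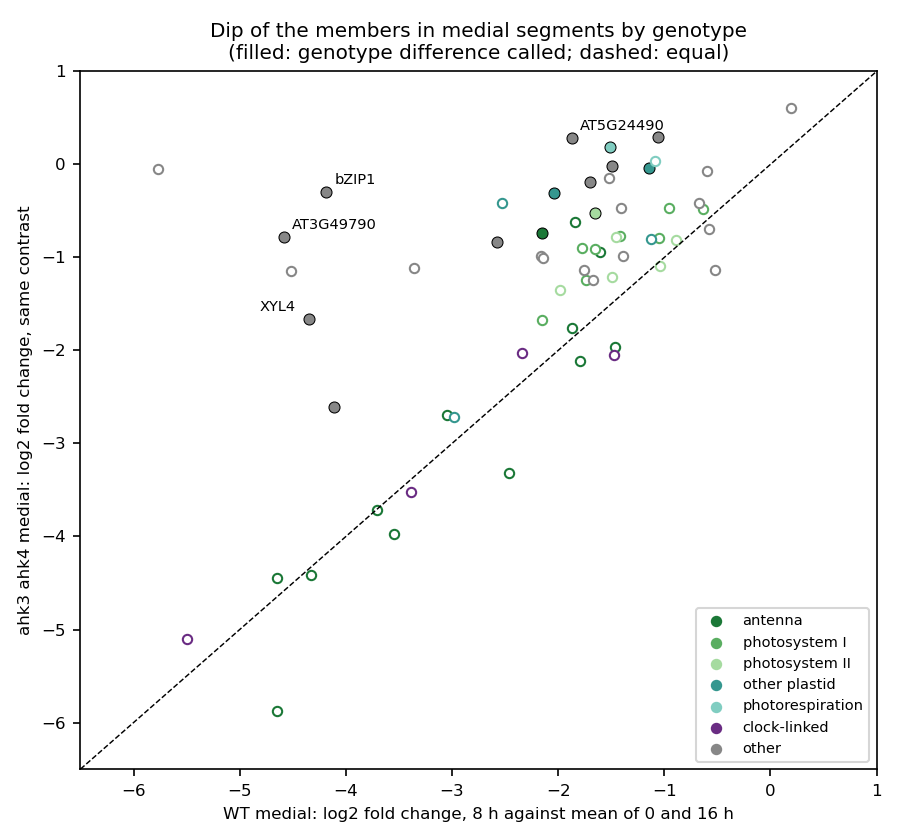
Log2 fold change at 8 h against the mean of 0 h and 16 h for each of the 62 members, WT medial on the horizontal axis and ahk3 ahk4 medial on the vertical axis (colour gives the class, filled points are the 14 whose difference between genotypes was called, the dashed line marks equal values). All antenna genes but LHCA2, and the clock-linked genes, are open. They lie on both sides of the dashed line, with differences from −1.22 for LHCB2.2 to 1.22 for LHCB5. The filled points lie above the line, and an open point does not mean equal values.

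Basal and medial segments were compared in ahk3 ahk4 only, for the same reason. At 0 h 27 members were lower in basal than in medial segments (6.33% of all genes) and 2 were higher (3.98%), PR4 at 3.43 ± 0.75 and AT2G46220 at 1.67 ± 0.34. At 8 h 49 were lower (7.14%) and none higher (4.16%) by edgeR or by DESeq2, with 0 at an unadjusted p under 0.05, and at 16 h 53 were lower (12.2%) and EXLB1 was higher (11.3%) at 1.35 ± 0.40 (adjusted p = 0.0137). All 8 photosystem I genes were lower at each time, and so were 5, 6 and 6 of the 6 photosystem II genes and 11, 12 and 13 of the 13 antenna genes. None of the 4 clock-linked genes was lower at 0 h or 8 h, and 2 were at 16 h. PSAD-2 read 2.05, 1.34 and 2.54 CPM in basal and 46.9, 26.8 and 38.1 in medial segments at 16 h, a difference of −4.19 ± 0.42 (adjusted p = 2.08e-08). The 6 shoot epidermis markers summed to 764 to 919.5 CPM in basal and 1563 to 1926 CPM in medial segments at 0 h and to 258 to 277 and 1434 to 1846 CPM at 16 h. LTP1, which encodes a lipid transfer protein, made up most of the sum in medial segments at 16 h, and the other 5 summed to 644 to 785 and 1098 to 1407 CPM at 0 h and to 111 to 139.6 and 331 to 385 CPM at 16 h, lower in basal segments at both times. The part of these markers in the differences was not tested. The log2 fold change of 8 h against the mean of 0 h and 16 h was lower in basal than in medial segments for 5 members (0.246% of all genes). They were EFE by −3.17 ± 0.42 (adjusted p = 0.000396), AT3G50560 by −1.93 ± 0.40, AGT by −1.67 ± 0.38, LHCA2 by −1.42 ± 0.33 and the uncharacterized AT5G38980 by −1.34 ± 0.29. No member was called the other way (0.215% of all genes) by edgeR, with 5 at an unadjusted p under 0.05 and 3 called by DESeq2. EFE read 27.5, 30.0 and 18.4 CPM, 2.31, 3.01 and 3.73 CPM and 12.9, 16.4 and 13.7 CPM in basal and 28.9, 13.6 and 25.1 CPM, 56.4, 35.0 and 61.4 CPM and 55.4, 52.7 and 54.2 CPM in medial segments, a fall and return in the one and a rise in the other. EFE was called in each alternative run. The count of 5 was 2 or 3 without any 1 of 9 ahk3 ahk4 libraries, 2 for example without the first or the third of basal segments at 8 h. EXLB1 was not called at 16 h without the second medial library.

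Genes of the same pathways were counted outside the members, and many of these counts rest on few genes. At 8 h, 12.5%, 7.86% and 8.44% of all genes were called lower in WT medial, ahk3 ahk4 basal and ahk3 ahk4 medial. The shares called higher were 13.2%, 12.6% and 13.7%. Of 8 antenna genes outside the members, 2, 2 and 1 were called lower and 1, 0 and 1 higher at 8 h in WT medial, ahk3 ahk4 basal and ahk3 ahk4 medial. LHCB1.4, a further LHCB1 gene, was lower in all 3, at −2.65 ± 0.31, −0.85 ± 0.28 and −0.90 ± 0.28, and LHCA5, a minor antenna protein of photosystem I, was higher in both medial series, at 0.67 ± 0.24 and 0.67 ± 0.24. In lists added after the data had been seen, of 5 photosystem I subunits outside the members 4, 2 and 0 were lower and none higher, and of 6 photosystem II proteins 1, 0 and 0 were lower and 1, 1 and 1 higher. Of 8 further photorespiration genes 0, 1 and 0 were lower and 3, 3 and 6 higher, with none of them called lower in WT medial, where AGT and HPR were. Of 20 genes of chlorophyll synthesis 6, 1 and 3 were lower and 4, 6 and 4 higher. The median log2 fold changes in the 3 series were 0.16, −1.05 and −0.58 for these antenna genes and −0.33, 0.10 and 0.28 for chlorophyll synthesis.

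bZIP1 and BMY3, the gene also called BAM9, belong to a list of genes induced by dark and sugar starvation. Of the 21 other tested genes of that list, 15 were called lower and none higher at 8 h in WT medial, with a median log2 fold change of −2.01. In ahk3 ahk4 basal 1 was lower and 1 higher (median −0.61), and in ahk3 ahk4 medial 3 were lower and 3 higher (median −0.41). In the order of these series, 12.5%, 7.86% and 8.44% of all genes were called lower and 13.2%, 12.6% and 13.7% higher. The counts of ahk3 ahk4 basal are below these shares, and the count higher in ahk3 ahk4 medial is near its share. The difference of this contrast between genotypes in medial segments was called for 9 of the 21, each with a higher value in ahk3 ahk4, beside 3.38% of all genes. Of 24 CONSTANS-like and other B-box genes 13, 9 and 8 were lower and 2, 4 and 2 higher, with medians of −1.36, −1.11 and −0.49.

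Some tissue markers were also lower at 8 h than at 0 h, not all of them with a return at 16 h. The marker lists of xylem, cambium, guard cells and cotyledon or leaf are not given here. The 6 endodermis markers summed in WT basal to 1879 to 2183 CPM at 0 h, 201 to 336 at 8 h and 171 to 262 at 16 h, without the return that the members showed. In WT medial they went from 1594 to 2262 through 451 to 762 to 1997 to 2587 CPM. In the 3 tested series 5, 5 and 4 of the 6 were called lower at 8 h, beside 12.5%, 7.86% and 8.44% of all genes. The 4 phloem markers in WT basal summed to 179 to 242 CPM at 0 h, 36.3 to 55.6 at 8 h and 54.6 to 80 at 16 h. The shoot epidermis markers in WT basal held 616 to 764 CPM at 0 h, 560.4 to 692 at 8 h and 283 to 353 at 16 h, with the ranges of 0 h and 8 h overlapping. That sum, taken apart after its values had been seen, holds opposite courses. LTP1 had 186 to 412 CPM at 0 h and 369 to 563 at 8 h, while the other 5 markers summed to 353 to 430.5 CPM at 0 h, 128 to 191 at 8 h and 117 to 153 at 16 h, each of the 5 having a lower mean at 8 h than at 0 h and their sum showing no return. In WT medial and in ahk3 ahk4 basal ATML1, FDH and CER5 were called lower at 8 h than the mean of 0 h and 16 h, at −1.14 ± 0.24, −0.85 ± 0.22 and −1.24 ± 0.27 in the first, and in ahk3 ahk4 medial none of the 3 was, at −0.20 ± 0.23, −0.57 ± 0.22 and −0.28 ± 0.26. LTP1 was called higher in all 3. The values of PDF2 and CER1, of the same list, are not given for this contrast, so the named markers do not stand for the whole list.

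RBCS1A, a gene of the small subunit of Rubisco and the only photosynthetic tissue marker outside the members, did not follow their course in medial segments. It stood at 220.0, 225 and 138 CPM at 0 h, 539, 669 and 559.8 at 8 h and 2910.4, 3058 and 2739 at 16 h in WT medial and at 121, 190.2 and 159, then 1066, 765 and 976 and 3409, 2801 and 2782 in ahk3 ahk4 medial, with every library above all those of the time before. Against the mean of 0 h and 16 h its 8 h level was not called in any of the 3 series, at −0.42 ± 0.21, −0.20 ± 0.21 and 0.53 ± 0.20. In WT basal, where the members were chosen, it stood at 77.5, 58.7 and 91.8 CPM, then 34.8, 43.3 and 26.8 and 600.0, 1209 and 981. The part of tissue make-up in the dip was not tested.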

How the data were processed

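For each of 36 libraries the authors deposited a table of raw counts per gene. Per the submitters' processing notes HTSeq and DESeq2 were used, with no versions stated; the aligner, build, annotation and strand setting are, for their part, not given in the sources used here. Between 4.59% and 62.2% of the reads of a library stood in lines that name no gene, which entered neither totals nor tests.

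CPM are counts divided by all reads assigned to genes. The members and all gene lists were chosen with earlier results of these data known. Replicates of a group differed by more than sampling noise (lowest chi-square per degree of freedom 9.31) and each counted as 1 sample. Tests used edgeR 4.0.16 in R 4.3.3 (TMM factors, filterByExpr, robust glmQLFit, glmQLFTest) with 1 mean per group, 27 libraries in 9 groups and 18 residual degrees of freedom. SE was taken as the size of the log2 fold change over the root of F, which is unreliable for changes near 0. Of 20 contrasts, the 3 of 16 h against 0 h were added after the data had been seen. All 62 members passed the filter on low counts. The script was tested on simulated counts. DESeq2 1.42.0, other scalings, covariates, other member thresholds and leaving out each library were alternatives.

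Named members are the 12 deepest dips, up to 5 called at each end of a contrast, the 6 of highest mean level, those at the edges of the thresholds and members of a fixed list, and the text prints part of their values. Others named in the class accounts were picked after their values had been seen. Names, neighbours and promoters came from RefSeq's TAIR10.1, in which 45 members had a symbol of their own. The build of the deposited counts is unnamed, so coordinates refer to TAIR10.1 only.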

Additional observations from a re-analysis of the deposited data

Results flagged for a closer look

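The log2 fold change of 8 h against the mean of 0 h and 16 h in medial segments differed between ahk3 ahk4 and WT for 14 members. The difference itself was tested, and each of the 14 had the higher value in ahk3 ahk4. The 5 of largest difference on the log2 scale were bZIP1 at 3.89, AT3G49790 at 3.81, XYL4 at 2.68, AT5G24490 at 2.15 and AT3G29240 at 1.74. Of these, XYL4, AT3G49790 and AT3G29240 were called under each alternative run, bZIP1 lost its call without any 1 of the 3 WT medial libraries of 8 h, and AT5G24490 lost it in 11 of the settings that left out 1 library.

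The same contrast in ahk3 ahk4 differed between basal and medial segments for 5 members, each with the lower value in basal segments. They were EFE at −3.17, AT3G50560 at −1.93, AGT at −1.67, LHCA2 at −1.42 and AT5G38980 at −1.34. AT3G50560, AGT and LHCA2 were also among the 14 members above, and both tests used the ahk3 ahk4 medial libraries.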

How the results depend on the processing

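The 3 counts of members called lower at 8 h than the mean of 0 h and 16 h stayed within 1.5 times their values under every alternative run except the looser member threshold. None of these calls changed direction. In this section a dipped member is one with that call, which a fall alone or a rise alone can also pass. A difference of the dip is a difference of that contrast. A threshold of 3-fold gave 115 members. Of these, 94, 86 and 54 were called dipped in WT medial, ahk3 ahk4 basal and ahk3 ahk4 medial, 80, 85 and 42 had fallen from 0 h, and 96 rose in WT medial after 8 h. At 16 h against 0 h, 35 were then higher in WT medial, 55 lower and 17 higher in ahk3 ahk4 basal, and 12 lower and 48 higher in ahk3 ahk4 medial. Genotype counts became 11 lower at 0 h, 12 higher at 8 h and 4 lower at 16 h, and 33 members differed in the dip. Region counts became 6 higher at 0 h, 77 lower and 1 higher at 8 h, and 82 lower and 4 higher at 16 h. A threshold of 5-fold gave 42 members and moved 8 counts, to 7 lower in WT medial, 19 lower in ahk3 ahk4 basal and 17 higher in ahk3 ahk4 medial at 16 h against 0 h, to 3 lower at 0 h and 0 lower and 0 higher at 16 h between genotypes, to 1 higher in basal segments at 0 h, and to 2 members of deeper basal dip. A level of 5 CPM moved counts to 5 lower in ahk3 ahk4 medial at 16 h against 0 h and 2 higher in basal segments at 16 h. A level of 20 CPM moved counts to 3 lower between genotypes at 0 h, 0 higher in basal segments at 16 h and 9 for the genotype difference of the dip. Members chosen on TMM-adjusted CPM gave 0 lower between genotypes at 16 h.

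Fitting only the groups compared moved the rise in ahk3 ahk4 basal to 15, the lower calls at 16 h against 0 h in ahk3 ahk4 medial to 6, the genotype counts to 16 lower at 0 h, 0 higher at 8 h, and 2 lower and 6 higher at 16 h, the region counts to 7 higher at 0 h and 3 higher at 16 h, and the deeper basal dip to 3. With reads outside genes, as a share, in the fit, the count higher at 16 h against 0 h in ahk3 ahk4 basal was 2, the genotype count at 8 h 2, basal segments higher at 16 h 0, the genotype difference of the dip 8, and the region difference 8 lower and 2 higher. With the share of multiply aligned reads these were 0, 2 and 0, and the region difference gave 1 higher. In ahk3 ahk4 basal at 16 h against 0 h these covariates turned the sign of PSAH2 (−0.10 and −0.20 in that order) and LHCB5 (−0.27 and −0.26), and the second also that of HPR (−0.0767) and CDA1 (0.0071); the cause was not tested. DESeq2's Wald test gave 9 higher at 8 h and 2 lower at 16 h between genotypes, and 9 lower and 3 higher for the region difference of the dip. Without a filter on low counts there were 2 lower between genotypes at 16 h and 1 higher for the region difference, and with all 36 libraries 2 lower, 0 higher and 1 higher.

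With any 1 library left out, the number of members ranged from 57 to 74. In the order WT medial, ahk3 ahk4 basal and ahk3 ahk4 medial, the dipped members ranged over 51 to 67, 44 to 63 and 27 to 41, the fallen over 43 to 61, 43 to 62 and 20 to 32, the risen over 50 to 63, 17 to 39 and 32 to 44, those lower at 16 h than at 0 h over 9 to 16, 22 to 41 and 2 to 8, and those higher over 14 to 24, 3 to 10 and 21 to 31. At 0, 8 and 16 h the members lower in ahk3 ahk4 than in WT ranged over 3 to 8, 0 to 0 and 0 to 2, those higher over 0 to 0, 0 to 6 and 0 to 1, those lower in basal segments over 23 to 30, 42 to 56 and 47 to 60, and those higher over 1 to 4, 0 to 1 and 0 to 3. The genotype difference of the dip ranged over 6 to 19 higher and 0 to 0 lower, and the region difference over 2 to 7 lower and 0 to 1 higher.

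Replicate numbers did not pair the libraries. Correlations of the deviations of same-numbered libraries ran from −0.218 to 0.203, no contrast had all of them above 0.1, and 9 of 27 libraries correlated best with their own number. With the replicate number as a block, 12 of 665 called pairs of a member and a contrast lost their call, and each of the 31 counts stayed within 1.5 times its value, with 56, 54 and 35 dipped members becoming 56, 53 and 34. Depth limits the members read at a few CPM, since the shallowest library held 6136167 assigned reads.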

Other observations

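Genes of cell elongation, shade and cold were counted outside the members at 8 h, where 12.5%, 7.86% and 8.44% of all genes were called lower in WT medial, ahk3 ahk4 basal and ahk3 ahk4 medial and 13.2%, 12.6% and 13.7% higher. Of 28 SAUR and cell wall loosening genes, which act in auxin-driven growth, 16 were called lower and 1 higher in WT medial, 3 lower and 4 higher in ahk3 ahk4 basal, and 7 lower and 2 higher in ahk3 ahk4 medial (medians −1.67, 0.00 and −0.63). Of 25 genes of the shade and PIF response 10, 4 and 3 were lower and 1, 4 and 2 higher (medians −1.91, −0.75 and −0.73). Of 14 cold-response genes 3, 1 and 1 were lower and 6, 3 and 2 higher (medians 0.85, 0.29 and 0.26).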
